A study of Mus musculus with 6 samples.

Results

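The 33 genes described here encode proteins that make ribosomes: RNA polymerase I (Pol I) subunits and factors, the small nucleolar particles that modify ribosomal RNA, and the assembly factors of both ribosomal subunits. They were chosen by name, from a list of known ribosome biogenesis genes, and all 33 were found among the 15553 genes of the deposited table. The RNA came from bone marrow cells that the labels call hematopoietic stem cells (HSCs), taken from C57BL/6 mice 6 to 8 weeks of age. All mice carried Mx1-Cre, a Cre recombinase under an interferon-inducible promoter that is not restricted to blood cells. The 3 wild-type libraries came from mice of genotype Mx1-Cre and the 3 knockout libraries from mice of genotype Yy1f/f;Mx1-Cre, in which Cre can delete Yy1, the gene of a zinc-finger transcription factor. The cells were sorted as Lin-, Sca1+ and c-Kit+, and the source and protocol fields differ on whether CD150- cells were taken beside CD150+ ones. The labels leave unsaid whether each library came from its own mouse, so the p-values below measure the spread between these libraries, which may be technical in part.

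Ribosome production starts in the nucleolus. Pol I, with the promoter-bound factor UBTF and the initiation factor RRN3, transcribes the long ribosomal RNA precursor. Box C/D particles then methylate and box H/ACA particles pseudouridylate the precursor, while assembly factors fold and cleave it into the RNAs of the small and the large subunit. Output of this pathway is known to be tied to cell growth and division, and resting stem cells are known for a low rate of protein synthesis.

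Reads recovered from the deposited values numbered 15102983 to 18460011 per wild-type library and 19473177 to 21757042 per knockout library. Yy1 itself stood at 31.6, 42.3 and 52.1 RPKM (reads scaled by gene length and library size) across wild type, while the libraries labelled knockout had 36.2, 16.6 and 28.5 RPKM. Its log2 fold change was -0.66 (standard error, SE, 0.32, limma adjusted p = 0.680), which does not pass. Without knockout replicate 1 it was -0.90 and without knockout replicate 2 it was -0.35. Yy1 in the library labelled Yy1-KO replicate 1 lay within the wild-type range. Wild-type replicate 3 had 1991 genes at 0, against 373 to 1099 in the others. The 12 stem cell markers (Kit and Procr among them) were all present, with summed levels of 687 to 753 RPKM across wild type and 500 to 525 RPKM across knockout. Of 8 megakaryocyte markers 7 were listed, summing to 30.8 to 36.5 RPKM across wild type and 51.5 to 110 RPKM across knockout. Gp1bb and Treml1 of that list were at 0 in at least 1 library. The granulocyte markers (8 of 9 listed) summed to 17.7 to 171 RPKM and 35.2 to 299 RPKM, and the erythroid markers (7 of 10 listed) to 217 to 262 RPKM and 212 to 274 RPKM. Of the monocyte, B cell and T and NK cell lists, 3 of 8, 1 of 7 and 1 of 8 markers were listed. The part of these markers in the results below was not tested. In bulk RNA of this kind, fewer cells of a type and less RNA per cell cannot be told apart.

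All 33 genes passed the filter on low values (at least 1 RPKM in at least 3 libraries), which kept 13179 genes. Averaged over the 6 libraries, 2 of them (Npm1 and Ncl) lay above 100 RPKM, 22 between 10 and 50 RPKM and 6 below 10 RPKM. The median level was 22.1 RPKM, against 9.07 RPKM for all genes tested. In the order of levels the third was Gnl3, and the 3 lowest were Rrp9, Rrp1b and Bysl. Between 94 and 31393 reads stood behind a value, the fewest for Rrp9 in wild-type replicate 1. Relative counting error is therefore largest for Rrp9.

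**Figure D1:**
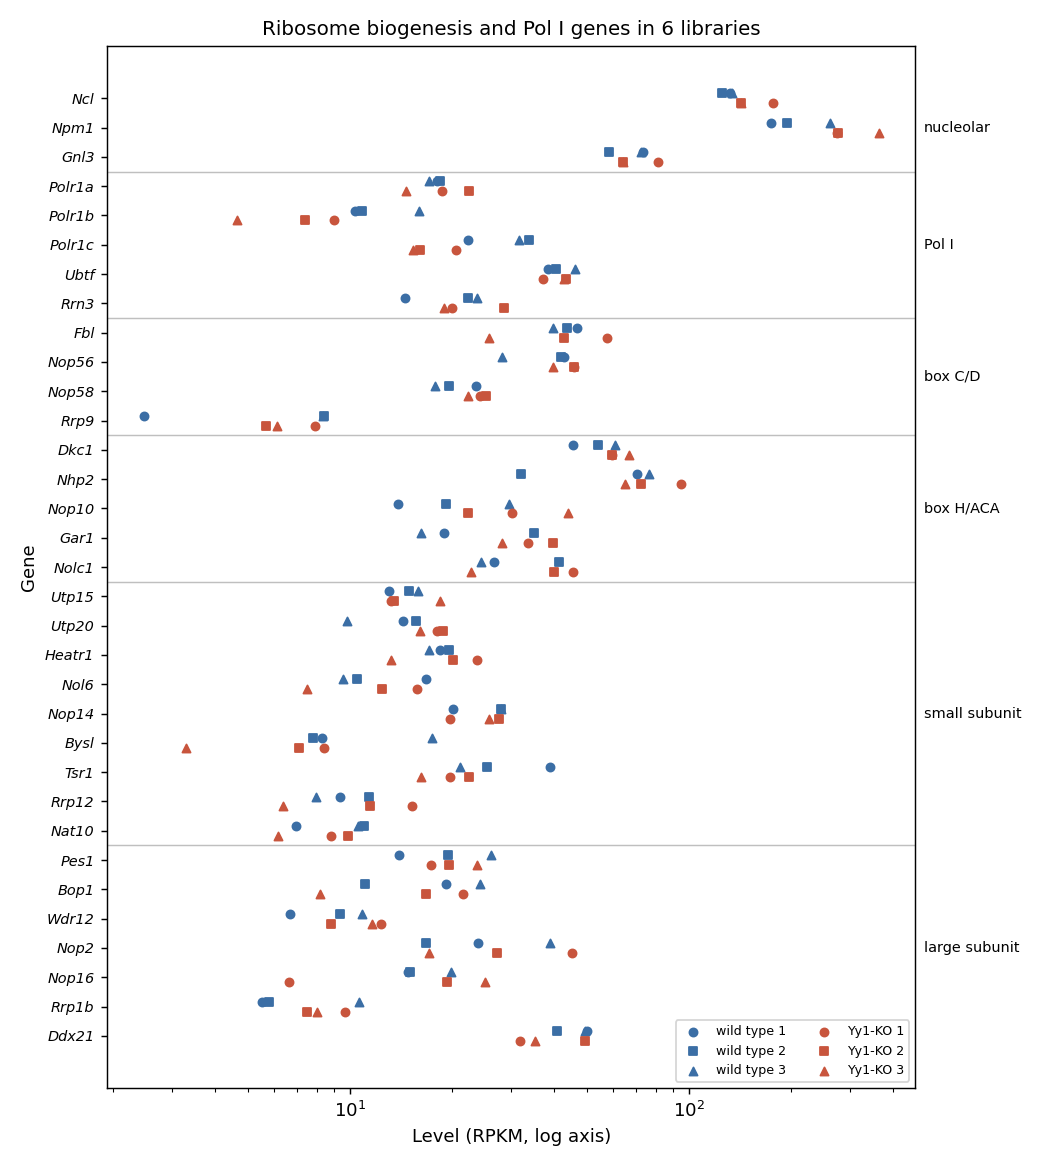
Level of each of the 33 genes (RPKM, log axis) in the 3 wild-type libraries (blue) and the 3 Yy1-KO libraries (red), ordered by role, with 1 symbol per replicate number. Npm1 and Ncl stand above 100 RPKM in every library, and the symbols of both genotypes overlap for all but 5 genes.

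No ribosome biogenesis gene passed the test of knockout against wild type. In limma on log2(RPKM + 0.5), with Benjamini-Hochberg adjustment over all 13179 genes, 0 of the 33 had an adjusted p under 0.05, and the background was 0.0% of all genes. Smallest among the 33 adjusted p-values was 0.566, for Polr1c. Before adjustment 2 were under 0.05, where the background in either direction was 7.79%. They were Npm1, higher in knockout, where the background was 4.73% of all genes in that direction, and Polr1c, lower, where it was 3.06%. In 3 genes (Npm1, Ncl and Utp20) all knockout libraries lay above all wild-type libraries (9.09% of the 33), against 7.63% of all genes. In 2 genes (Polr1b and Polr1c) they all lay below (6.06%), against 6.87%. The 5 together make up 15.2% of the 33, against 14.5% of all genes. These shares are near the background. The median log2 fold change was 0.06, with 21 genes above 0 (63.6%) and 12 below. Over all genes tested the median was 0.02, with 51.9% above 0. By size, disregarding sign, the median change was 0.21, against 0.28 over the 7988 tested genes in the same range of level. Within that range those genes were not matched to the 33 by level. Without knockout replicate 3 the median log2 fold change of the 33 was 0.23.

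A limma-voom fit of reads recovered from the deposited values also called 0 of the 33 (background 0.0458%). It gave 5 of them an unadjusted p under 0.05 (background 8.14%): Npm1, Polr1b, Ncl, Polr1c and Utp20, the same 5 genes whose libraries did not overlap. The authors' deposited table called 0 of the 33 at an adjusted p under 0.05 (background 0.154%), with 4 at an unadjusted p under 0.05 (background 8.02%). In the authors' deposited table those 4 were Npm1 (adjusted p = 0.217, the smallest of the 33), Polr1b (0.565), Polr1c (0.601) and Ncl (0.610).

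**Figure D2:**
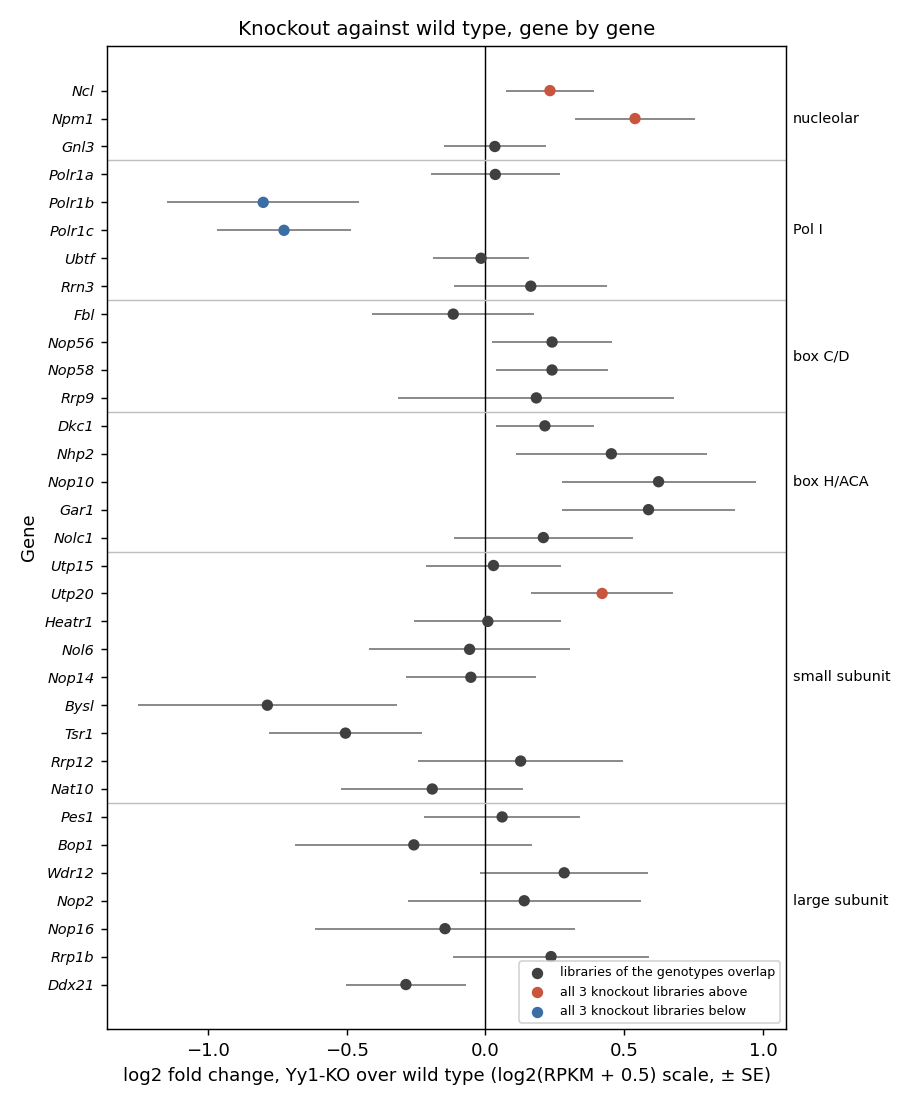
Log2 change of each gene, knockout relative to wild type, on the log2(RPKM + 0.5) scale, with its standard error (limma, 3 libraries per genotype). Colour marks the 3 genes with all knockout libraries above wild type (red) and the 2 with all below (blue). Polr1b and Polr1c stand at -0.80 and -0.73, below the other Pol I genes.

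Pol I transcription genes split into 2 lower and 3 with overlap. Polr1c (ENSMUSG00000067148, chromosome 17: 46243920 to 46248054 in GRCm38) encodes a core subunit that Pol I shares with Pol III. It stood at 22.3, 33.8 and 31.5 RPKM across wild type and 20.6, 16.1 and 15.3 RPKM across knockout. Every knockout library lay below every wild-type library, though replicates 1 of both genotypes came within a small gap. Wild type averaged 29.2 ± 6.08 RPKM and knockout 17.3 ± 2.82 RPKM (SD over 3 libraries, as for every mean given here). The log2 fold change was -0.73 (SE 0.24, limma adjusted p = 0.566). It was -0.85 without knockout replicate 1 and -0.66 without wild-type replicate 3. Polr1b (ENSMUSG00000027395, chromosome 2: 129100995 to 129126594) encodes the second-largest, catalytic subunit. Its levels were 10.3, 10.9 and 16.0 RPKM across wild type and 8.98, 7.39 and 4.64 RPKM across knockout, again without overlap. The highest value was in wild-type replicate 3 and the lowest in knockout replicate 3. The log2 fold change was -0.80 (SE 0.35, limma adjusted p = 0.640). Without wild-type replicate 3 it was -0.61, without knockout replicate 3 it was -0.55 and without knockout replicate 1 it was -0.99. 

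Polr1a (ENSMUSG00000049553, chromosome 6: 71909053 to 71984935), the gene of the largest catalytic subunit, did not share that pattern. It stood at 18.1, 18.5 and 17.1 RPKM across wild type and 18.7, 22.5 and 14.7 RPKM across knockout, so that the knockout libraries spread to both sides of a narrow wild-type range. The fitted log2 change was 0.04 (SE 0.23, limma adjusted p = 0.981). Within a library, Polr1b reached 0.571, 0.588 and 0.935 of the Polr1a level in wild type and 0.480, 0.329 and 0.316 of it in knockout. Polr1c reached 1.23, 1.83 and 1.84 times the Polr1a level in wild type and 1.10, 0.717 and 1.05 times in knockout. Neither ratio overlapped between genotypes (exact permutation p = 0.1 for each, two-sided, the smallest that 3 against 3 libraries allow; adjusted p = 0.35 over the 7 ratios computed). They were formed after the levels were known, and with so few libraries the test cannot reach 0.05.

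Ubtf and Rrn3, the members that encode factors bringing Pol I to its promoter, overlapped between genotypes. Ubtf, which encodes the upstream binding factor, stood at 38.4, 40.6 and 46.1 RPKM across wild type and 37.3, 43.3 and 43.0 RPKM across knockout. Rrn3, the gene of the initiation factor, stood at 14.5, 22.4 and 23.7 RPKM and at 20.1, 28.5 and 19.0 RPKM. Both overlapped widely, with log2 fold changes of -0.02 (SE 0.17) and 0.16 (SE 0.28).

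**Figure D3:**
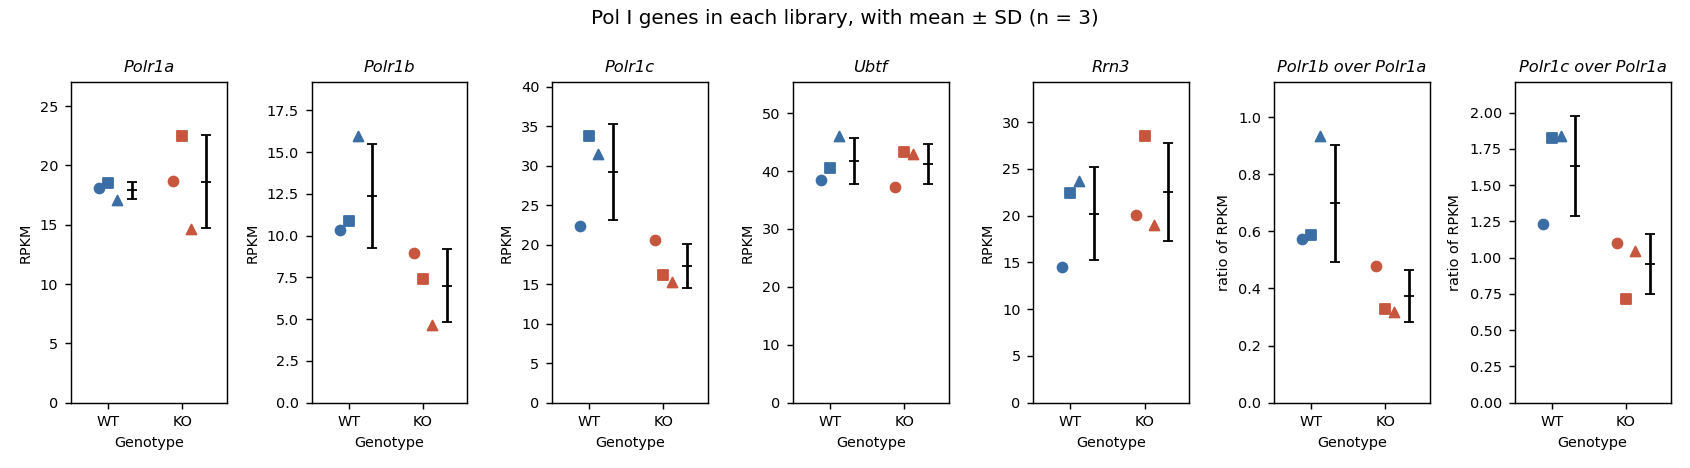
Levels of the 5 Pol I genes (RPKM, linear axes from 0) and the within-library ratios of Polr1b and Polr1c to Polr1a, by genotype; points are libraries, with mean ± SD (n = 3) beside them. Polr1b and Polr1c lie below the wild-type range in knockout, with means of 12.4 and 7.0 RPKM and of 29.2 and 17.3 RPKM, while Polr1a, Ubtf and Rrn3 overlap.

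Promoter letters are shown for Polr1b and Polr1c because these are the Pol I genes whose libraries did not overlap. Those of Utp20, Rrn3, Pes1 and Nop2 are shown because a searched motif lies within the printed stretch. The letters are RefSeq sequences of build GRCm38.p6, from 130 bases before to 20 bases after the annotated start, with motif matches in capitals. A set of 3 patterns was searched on both strands: the E-box CACGTG that MYC and MAX bind, the YY1 motif AANATGGCG, and TATAAA. The E-boxes of Tsr1, from base 25 after the start, and of Utp20, from base 38, lie beyond the printed stretch. So do another E-box of Rrn3, at -215 from the start, and the TATAAA matches of Pes1 (-216) and Dkc1 (-189, as TTTATA).
Polr1b: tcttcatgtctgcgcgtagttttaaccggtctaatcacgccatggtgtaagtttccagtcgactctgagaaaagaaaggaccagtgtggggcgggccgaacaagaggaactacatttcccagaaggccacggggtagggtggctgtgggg
Polr1c: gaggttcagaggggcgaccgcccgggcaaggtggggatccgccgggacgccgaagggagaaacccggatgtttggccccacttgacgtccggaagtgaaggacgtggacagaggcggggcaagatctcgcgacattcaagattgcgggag
Utp20: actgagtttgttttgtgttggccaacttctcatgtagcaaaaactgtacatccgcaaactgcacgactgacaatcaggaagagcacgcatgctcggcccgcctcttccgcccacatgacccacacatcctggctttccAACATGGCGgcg
Rrn3: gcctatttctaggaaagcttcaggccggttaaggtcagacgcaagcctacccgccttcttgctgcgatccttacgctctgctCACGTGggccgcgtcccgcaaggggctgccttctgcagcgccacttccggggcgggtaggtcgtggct
Pes1: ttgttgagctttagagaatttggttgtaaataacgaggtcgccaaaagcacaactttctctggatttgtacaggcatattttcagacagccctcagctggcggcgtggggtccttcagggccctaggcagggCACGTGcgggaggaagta
Nop2: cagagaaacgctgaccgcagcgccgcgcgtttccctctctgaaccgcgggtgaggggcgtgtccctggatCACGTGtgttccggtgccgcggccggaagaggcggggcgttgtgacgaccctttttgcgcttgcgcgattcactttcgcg
The stretches are chr2:129100866-129101015 (plus strand), chr17:46248026-46248175 (minus), chr10:88826795-88826944 (minus), chr16:13780569-13780718 (plus), chr11:3963845-3963994 (plus) and chr6:125131753-125131902 (plus). Promoter windows, from 250 bases before the start to 50 after, were found for 28 of the 33 genes. The E-box was in those of 5 of the 28 (17.9%): Nop2, Pes1, Rrn3, Tsr1 and Utp20. Among all 27025 genes with windows, 8.09% held it. The YY1 motif was in 1 of 28 (3.57%), Utp20, as AACATGGCG from base 9 after the RefSeq start, and in 2.76% of all genes. The GENCODE M21 start of Utp20 (88826804) lies within that motif, so its place relative to the start depends on the annotation. For Utp20, Rrn3 and Nop2 the first 20 bases after the RefSeq start were in no M21 transcript of the gene. TATAAA was in 2 of 28 (7.14%), Dkc1 and Pes1, and in 15.7% of all genes. None of the 3 patterns was in the windows of Polr1b or Polr1c. A match describes letters only.

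Of the 3 nucleolar genes none passed the test, and Npm1 and Ncl had all knockout libraries above all wild-type libraries. Npm1 (ENSMUSG00000057113, chromosome 11: 33152287 to 33163206) encodes nucleophosmin, a chaperone of the granular part of the nucleolus that acts in late ribosome assembly and export. It stood at 175, 195 and 262 RPKM across wild type and 274, 275 and 364 RPKM across knockout. All knockout values exceeded all wild-type values, with wild-type replicate 3 close beneath the lower knockout libraries. The means were 210 ± 45.4 and 304 ± 51.5 RPKM. The log2 fold change was 0.54 (SE 0.21, limma adjusted p = 0.623). It was 0.61 without knockout replicate 1 and 0.71 without wild-type replicate 3. Without wild-type replicate 1 it was 0.42, and without knockout replicate 3 it was 0.40. Reads of Npm1 can be shared with processed pseudogenes. In the table were 2 copies with at least 95% identity over at least 200 bases, and both also had higher means in knockout. Gm14681 stood at 753 ± 135 and 987 ± 278 RPKM and Gm5611 at 63.3 ± 14.4 and 89.3 ± 25.2 RPKM, each with overlap. How reads were divided among these loci was not tested, so the level of Npm1 is uncertain.

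Ncl (ENSMUSG00000026234, chromosome 1: 86344719 to 86359400) encodes nucleolin, which binds nascent ribosomal RNA. Its levels were 132, 125 and 134 RPKM across wild type and 177, 143 and 143 RPKM across knockout. The wild-type libraries lay within a narrow band and knockout replicate 1 stood highest. The log2 fold change was 0.23 (SE 0.16, limma adjusted p = 0.774), and 0.13 without knockout replicate 1. Gnl3, the gene of nucleostemin, a nucleolar GTPase known from stem cells, stood at 73.2, 58.1 and 72.5 RPKM across wild type and 81.1, 64.0 and 63.9 RPKM across knockout, with full overlap. The fitted log2 change was 0.03 (SE 0.18). Npm1 and Ncl together made up 29.1%, 30.1% and 32.4% of the summed RPKM of the 33 genes in wild type and 34.1%, 33.5% and 41.2% in knockout. A sum over the 33 therefore leans on these 2 genes.

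Genes of the box H/ACA particle all had fold changes above 0, in every fit and with any single library left out, and none passed. In limma 51.9% of all genes tested lay above 0. This particle guides pseudouridylation and, bound to telomerase RNA, is also part of telomerase. Nop10, a small core protein gene (ENSMUSG00000027133, chromosome 2: 112261926 to 112263269), stood at 13.9, 19.2 and 29.5 RPKM across wild type and 30.2, 22.3 and 44.1 RPKM across knockout. Gar1, another core protein gene, stood at 19.0, 35.1 and 16.3 RPKM and at 33.7, 39.8 and 28.1 RPKM. In both, 1 wild-type library (replicate 3 for Nop10, replicate 2 for Gar1) reached into the knockout range. Their log2 fold changes were 0.62 (SE 0.35, limma adjusted p = 0.723) and 0.59 (SE 0.31, adjusted p = 0.715). Without wild-type replicate 3 that of Gar1 was 0.37 and that of Nop10 0.90. Without wild-type replicate 2 that of Gar1 was 0.91. For Nop10 it was 0.37 without wild-type replicate 1, and also without knockout replicate 3.

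Dkc1, which encodes dyskerin, the pseudouridine synthase, was the steadiest of these genes. It stood at 45.6, 54.1 and 60.8 RPKM across wild type and 59.3, 59.3 and 66.9 RPKM across knockout, a log2 fold change of 0.21 (SE 0.18). Nhp2, the gene of a core RNA-binding subunit, stood at 70.4, 32 and 76.2 RPKM and at 94.8, 72.5 and 64.7 RPKM, and wild-type replicate 2 was its low library. The fitted log2 change was 0.45 (SE 0.34), and 0.06 without wild-type replicate 2. Nolc1, whose product chaperones these particles, had a log2 fold change of 0.21 (SE 0.32), and 0.01 without knockout replicate 1. The median over the 5 genes was 0.45. Relative to Dkc1 in the same library, Nop10, Gar1 and Nhp2 overlapped between genotypes, at means of 0.382 ± 0.0936 and 0.514 ± 0.142, 0.444 ± 0.191 and 0.553 ± 0.126, and 1.13 ± 0.489 and 1.26 ± 0.317.

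Box C/D genes overlapped between genotypes in every case. Fbl, which encodes fibrillarin, the methyltransferase, stood at 46.8, 43.7 and 39.8 RPKM across wild type and 57.4, 42.9 and 25.8 RPKM across knockout. The knockout libraries enclosed the wild-type range on both sides, and the log2 fold change was -0.12 (SE 0.29). Nop56 and Nop58 encode the paired core scaffold proteins of the particle. Nop56 stood at 42.9, 41.9 and 28.2 RPKM and at 45.9, 45.9 and 39.9 RPKM. Nop58 stood at 23.5, 19.6 and 17.8 RPKM and at 24.3, 25.2 and 22.3 RPKM. On the log2 scale each stood at 0.24, with standard errors of 0.22 and 0.20. Without wild-type replicate 3, the low library of both, Nop56 stood at 0.046 and Nop58 at 0.15. The ratio of Nop56 to Nop58 was 1.85 ± 0.281 in wild type and 1.83 ± 0.0545 in knockout. Nop56 also has listed pseudogene copies. Gm27219 stood at 10.4 ± 4.14 and 23.6 ± 9.20 RPKM, without overlap (limma adjusted p = 0.567). Gm9432 stood at 18.2 ± 13.8 and 25.4 ± 2.24 RPKM, with overlap. Gm5812, a pseudogene copy of Fbl, stood at 78.9, 57.5 and 84.4 RPKM across wild type and 66.2, 51.8 and 42.3 RPKM across knockout. It overlapped between genotypes and lay above Fbl in every library. Its log2 fold change was -0.46 (SE 0.23, limma adjusted p = 0.692). How reads were divided among these loci was not tested, so the levels of Fbl and Nop56 are uncertain. Rrp9, whose product belongs to the particle that guides the first cleavages of the precursor, had the lowest mean level of the 33. Its values were 2.47, 8.39 and 8.34 RPKM across wild type and 7.89, 5.68 and 6.10 RPKM across knockout, with wild-type replicate 1 far beneath the rest. The fitted log2 change was 0.18 (SE 0.50, limma adjusted p = 0.950), and -0.34 without wild-type replicate 1.

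Among the 9 small subunit genes, Utp20 stood higher and Bysl and Tsr1 lower, none past the test. Utp20 (ENSMUSG00000004356, chromosome 10: 88746607 to 88826804) encodes a scaffold of the early processing complex, and it is the gene with the YY1 motif shown above. It stood at 14.4, 15.7 and 9.82 RPKM across wild type and 18.1, 18.8 and 16.1 RPKM across knockout, with no overlap and the lowest value in wild-type replicate 3. The fitted log2 change was 0.42 (SE 0.26, limma adjusted p = 0.744), and 0.22 without wild-type replicate 3. Bysl, whose product acts late in small subunit maturation, stood at 8.27, 7.81 and 17.5 RPKM and at 8.42, 7.09 and 3.29 RPKM. Its log2 fold change of -0.79 (SE 0.47, limma adjusted p = 0.743) rested on the high wild-type replicate 3 and the low knockout replicate 3. It was -0.43 without the former and -0.41 without the latter. Bysl shares 361 of its 3854 exonic bases with Ccnd3 on the opposite strand.

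Tsr1, which encodes a GTPase-like factor of late small subunit assembly, stood at 39.0, 25.4 and 21.2 RPKM across wild type and 19.8, 22.4 and 16.2 RPKM across knockout. Only wild-type replicate 1 stood well above the rest. The log2 fold change was -0.50 (SE 0.28, limma adjusted p = 0.720), and -0.26 without wild-type replicate 1. Tsr1 shares 1240 of its 3837 exonic bases with Srr on the opposite strand, and with no strand setting of the counting given in the sources used here, reads of that stretch cannot be assigned. The remaining members Utp15, Heatr1, Nol6, Nop14, Rrp12 and Nat10 had log2 fold changes between -0.19 (Nat10) and 0.13 (Rrp12), with standard errors of 0.23 to 0.37. Heatr1, a gene also needed for Pol I transcription, stood at 18.4 ± 1.25 RPKM across wild type and 19.1 ± 5.38 RPKM across knockout. Nat10, an RNA acetyltransferase gene, stood at 9.54 ± 2.25 and 8.28 ± 1.91 RPKM.

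The 7 large subunit genes overlapped between genotypes throughout. Pes1, Bop1 and Wdr12 encode the 3 proteins of 1 complex needed for large subunit processing, and all 3 overlapped. Pes1 stood at 19.9 ± 6.09 and 20.3 ± 3.27 RPKM and Wdr12 at 8.97 ± 2.15 and 10.9 ± 1.90 RPKM. Bop1 stood at 19.2, 11.1 and 24.3 RPKM across wild type and 21.6, 16.8 and 8.17 RPKM across knockout. Their log2 fold changes were 0.06, 0.28 and -0.26, with standard errors of 0.28, 0.30 and 0.43, so these differences between partners are within the spread of the libraries. Wdr12 and Pes1 also have listed pseudogene copies. Gm4879, the copy of Wdr12, stood at 8.73 ± 3.03 and 10.2 ± 4.46 RPKM, close to Wdr12 itself. Gm5472, the copy of Pes1, stood far below Pes1. How reads were divided among these loci was not tested, so the levels of Wdr12 and Pes1 are uncertain. Nop2, an RNA methyltransferase gene, stood at 23.9, 16.8 and 38.9 RPKM and 45.3, 27.1 and 17.1 RPKM. Ddx21, a helicase gene that also acts with Pol I, stood at 50.2, 41.0 and 49.3 RPKM across wild type and 31.9, 49.4 and 35.3 RPKM across knockout. Its log2 fold change was -0.29 (SE 0.22, limma adjusted p = 0.793), and only knockout replicate 2 reached the wild-type values. Nop16 stood at 16.6 ± 2.82 and 17 ± 9.44 RPKM. Rrp1b, the second lowest of the 33, had 5.52, 5.78 and 10.6 RPKM across wild type and 9.67, 7.46 and 8.00 RPKM across knockout, all within the wild-type range. For Rrp1b the log2 change was 0.24 (SE 0.35, limma adjusted p = 0.900), and 0.078 without wild-type replicate 1.

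**Figure D4:**
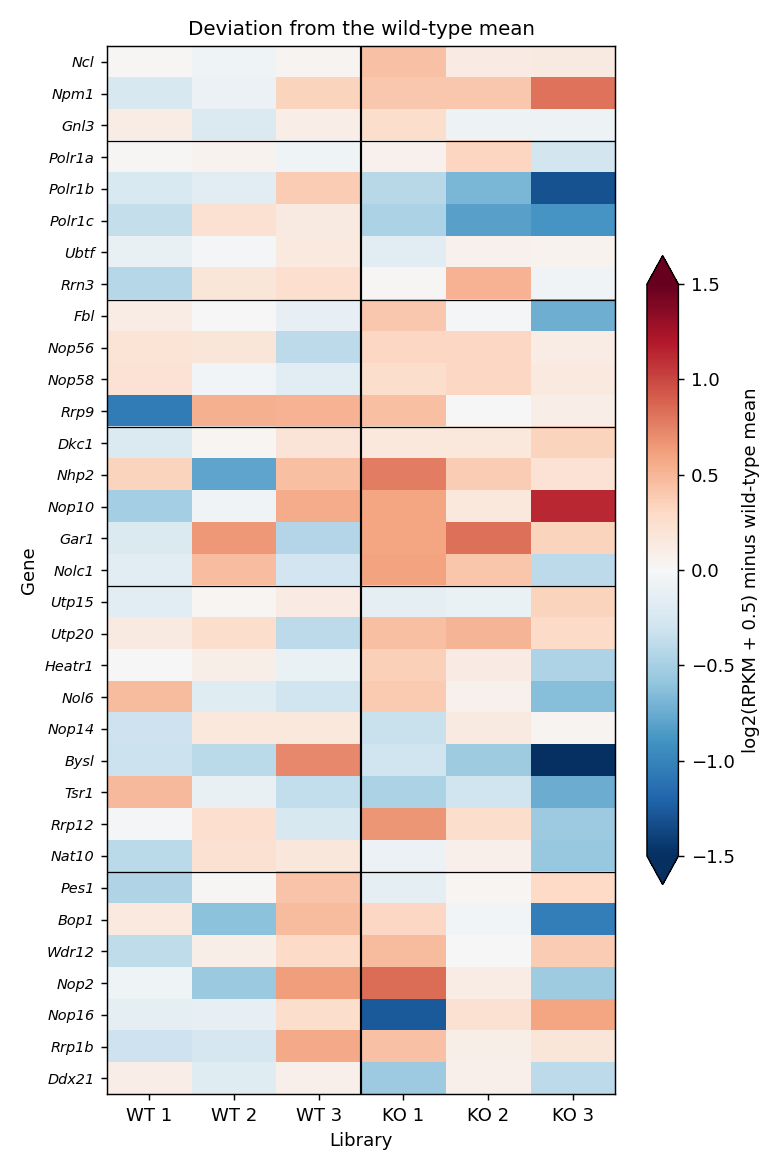
Each gene's log2(RPKM + 0.5) in each library minus its wild-type mean, with blue for lower and red for higher; black lines part the genotypes and the roles. Polr1b, Polr1c, Bysl and Tsr1 are below 0 in all 3 knockout libraries. Npm1 is above 0 in all 3, as are Ncl, Nop56, Nop58, Rrp9, Dkc1, Nhp2, Nop10, Gar1, Utp20 and Rrp1b, some of them slightly. Knockout replicate 3 holds the lowest value of 12 of the 33 genes.

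The extremes were not spread evenly over the libraries. Knockout replicate 1 held the highest of the 6 values for 10 genes and knockout replicate 3 the lowest for 12. Knockout replicate 2 was the lowest for 0 genes. Such counts were not made over all genes tested, so whether they are particular to the 33 genes is not known. The median deviation of the 33 genes from the wild-type mean, on the log2 scale, came to -0.14, 0.01 and 0.15 for the wild-type libraries and 0.31, 0.11 and 0.04 for the knockout ones, in replicate number. Knockout replicates 2 and 3 thus lay within the wild-type range. For the small subunit genes the median in knockout replicate 3 was -0.54, while for the box H/ACA genes the 3 knockout medians, 0.59, 0.38 and 0.33, lay above the wild-type ones, -0.22, 0.03 and 0.19. Within a genotype, the 33 genes had a median standard deviation of 0.34 on the log2 scale. It was 0.38 for the tested genes of the same range of level, which were not matched to the 33 within it.

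Other genes of the pathway were taken from a list of 121, of which 120 were in the table and all 120 were tested. In limma 0 of them had an adjusted p under 0.05. Before adjustment, 7 were higher at a p under 0.05 (5.83%, against 4.73% of all genes) and 1 lower (0.833%, against 3.06%). The libraries of the genotypes did not overlap for 12 higher genes (10%, against 7.63%) and 5 lower ones (4.17%, against 6.87%). The median log2 fold change was 0.13, with 74 above 0 (61.7%, against 51.9% of all genes) and 46 below. The higher genes with the smallest p included further Pol I genes. Polr1d, a small subunit shared by Pol I and Pol III, stood at 12, 16.5 and 21.2 RPKM across wild type and 23.0, 27.1 and 32.2 RPKM across knockout, a log2 fold change of 0.74 (SE 0.27, limma adjusted p = 0.589). It forms a dimer with the Polr1c product, whose gene stood lower. Taf1d, which encodes a subunit of the Pol I promoter selectivity factor, stood at 76.1, 65.0 and 57.3 RPKM and at 77.7, 98.8 and 106 RPKM, with a log2 fold change of 0.50 and a standard error of 0.19. Exosc7, an RNA exosome subunit gene, stood at 29.3, 34.1 and 32.7 RPKM and at 66.4, 38.9 and 46.1 RPKM, with a log2 fold change of 0.61 and a standard error of 0.23.

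In the other direction, the small subunit gene Rrp36 stood at 7.64, 14.8 and 13.1 RPKM across wild type and 5.96, 4.11 and 0.900 RPKM across knockout, a log2 fold change of -1.78 (SE 0.61, limma adjusted p = 0.568). Its lowest value rests on 41 reads. Utp14a and Ddx56 had log2 fold changes of -0.67 and -0.51, with standard errors of 0.35 and 0.28. By role, the medians were 0.24 for the 11 further Pol I genes, 0.03 for 45 small subunit genes and 0.14 for 47 large subunit genes. They were -0.06 for 6 particle assembly genes and 0.40 for 11 exosome genes. Of the exosome genes 9 lay above 0 (81.8%, against 51.9% of all genes tested).

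The cytosolic ribosomal protein genes and a list of cell division genes were measured beside the 33 genes. The 80 ribosomal protein genes stood at a median log2 change of -0.10, with 29 above 0 and 51 below. Without overlap, 8 of the 80 were lower and 0 higher, where the shares over all genes were 6.87% and 7.63%. The 15 cell division genes had a median of 1.43, all 15 above 0 and 13 of the 15 higher without overlap, against 7.63% of all genes. In the same libraries the summed level of those cell division genes was 157 to 224 RPKM across wild type and 494 to 524 RPKM across knockout. The summed level of the 33 genes was 1056, 1063 and 1222 RPKM across wild type and 1324, 1245 and 1230 RPKM across knockout. Every knockout sum lay above every wild-type sum, by a small margin between knockout replicate 3 and wild-type replicate 3. Npm1 and Ncl made up 41.2% of the sum in knockout replicate 3, against 29.1% to 34.1% in the other libraries. The order of the sums therefore leans on Npm1 and Ncl, and the level of Npm1 is uncertain. In limma none of these lists held a gene with an adjusted p under 0.05. In limma-voom 5 cell division genes did (Kif11, Mki67, Top2a, Cenpf and Aspm), and the authors' deposited table called these as well. The differences between the lists were not tested.

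**Figure D5:**
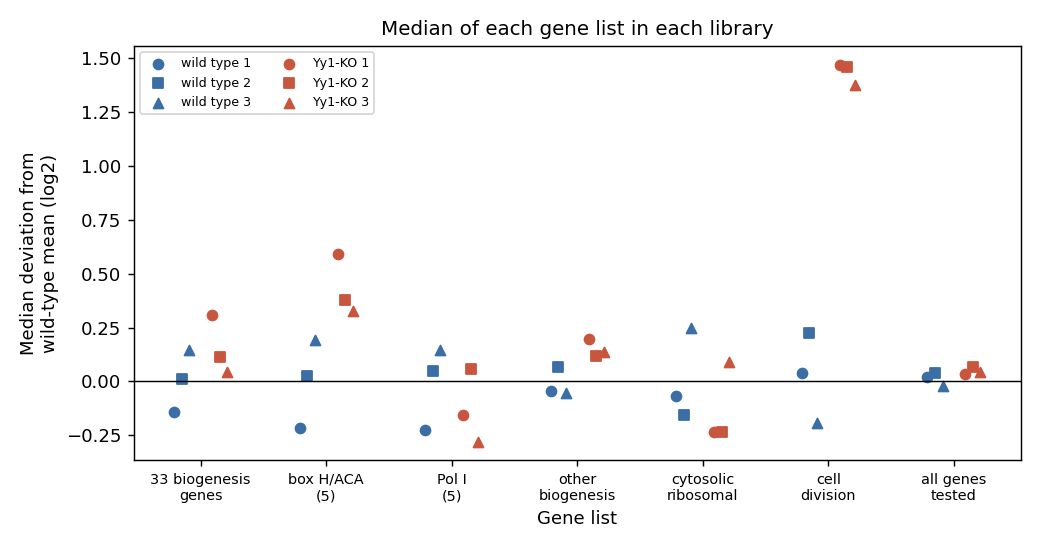
Median deviation from the wild-type mean (log2 scale) of each gene list in each library, wild type in blue and Yy1-KO in red. The 33 biogenesis genes stay between -0.14 and 0.31 in all 6 libraries, while the cell division genes stand at 1.38 to 1.47 in knockout.

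Several of the 33 genes are also hosts of small nucleolar RNAs, the guides used by the particles described above. In the GENCODE M21 annotation, 18 such genes lie on the same strand inside 6 members: 5 in Nop56, 4 in Nop58, 3 each in Gnl3 and Ncl, 2 in Tsr1 and 1 in Dkc1. Of these, 3 were among the genes of the deposited table. Snord70, inside Nop58, was listed at 0 in all wild-type libraries and in knockout replicate 3, and at 67.4 and 46.0 RPKM across knockout replicates 1 and 2. Snord19, inside Gnl3, was at 0, 24.5 and 0 RPKM and at 23.4, 38.4 and 0 RPKM. Gm24916, also inside Gnl3, was at 0.980, 58.1 and 63.3 RPKM and at 45.1, 26.0 and 27.2 RPKM. All 3 overlapped between genotypes. Snord19 and Gm24916 share 76 and 79 exonic bases with Gnl3 on the same strand, so reads of those bases cannot be assigned. The number of reads behind these 3 short genes is not given here.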

How the data were processed

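The deposited table of the study gives 6 libraries, 3 wild type and 3 Yy1 knockout, with 1 column each, matched to samples by the library names in the labels. The submitters' processing notes name Subread, featureCounts, edgeR and limma as tools of the authors and mm10 as build, without version or role. The header does not name the unit of the 6 columns. The authors' values behaved as RPKM: multiplied by the exonic length of GENCODE M21 (GRCm38), they were whole multiples of 1 step per library, within 0.02 reads in all 6 libraries, for 11105 of 15465 genes with a length (71.8%) and for 20 of the 33 genes described here. For the rest the recovered reads are estimates. The log2 fold change, p-value and adjusted p-value of the authors' own comparison are as deposited, and the test behind them is not named. 

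Knockout was compared with wild type by limma 3.58.1 in R 4.3.3 applied to log2(RPKM + 0.5) of genes that reached 1 RPKM in 3 or more libraries, using a variance trend and Benjamini-Hochberg adjustment over all genes tested (called under 0.05). Fold changes on this scale understate those of low genes. The fit was tested on simulated data. Alternatives were the pseudocount (0.1, 1), no filter or 5 RPKM, no variance trend, quantile normalization, limma-voom on recovered reads, a replicate block and leaving out each library. Members, gene lists, motifs and tests were chosen with earlier results of these data known. Genes given in full include all those without overlap or with an unadjusted p under 0.05, the 3 highest and 3 lowest by level and all Pol I members, and of the other pathway genes the 3 with the smallest p in each direction. Copies were found with megablast on M21 transcripts. Library amplification precedes sequencing, so reads are not independent molecules.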

Additional observations from a re-analysis of the deposited data

How the results depend on the processing

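No alternative called any of the 33 genes or of the other pathway genes. Over all genes, limma-voom called 6 in place of 0, and leaving out a library gave 0 to 1. Members with an unadjusted p under 0.05 numbered 2, and 5 in limma-voom, 1 with no variance trend and 4 with a replicate block. That count ranged from 0 (without knockout replicate 2, or 3) to 4 (without wild-type replicate 3) when a library was left out. The median log2 fold change of the 33 ranged from 0.043 to 0.23 without a library. For the other pathway genes the count, 8, was 15 in limma-voom and 3 with no variance trend. It was 3 to 13 without a library (3 without wild-type replicate 1, 13 without wild-type replicate 2). The median log2 fold change of these genes was 0.13 in limma and 0.20 in limma-voom. The median over all genes tested moved the same way, from 0.022 in limma to 0.091 in limma-voom. The higher pathway median in limma-voom is therefore not specific to the pathway. The cause of these shifts was not tested.

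Of the 33 genes, 18 kept the sign of their fold change under every alternative run, and the same count over all genes was not made. The 15 others reversed under at least 1. Without a library in turn, their log2 fold changes ranged from -0.079 to 0.091 for Gnl3, -0.11 to 0.19 for Polr1a, -0.072 to 0.058 for Ubtf, -0.052 to 0.29 for Rrn3, -0.37 to 0.19 for Fbl, -0.34 to 0.45 for Rrp9, -0.12 to 0.11 for Utp15 and -0.17 to 0.24 for Heatr1. The ranges were -0.28 to 0.23 for Nol6, -0.21 to 0.090 for Nop14, -0.14 to 0.46 for Rrp12, -0.17 to 0.28 for Pes1, -0.57 to 0.13 for Bop1, -0.21 to 0.48 for Nop2 and -0.51 to 0.41 for Nop16. In limma-voom, where the median over all genes was 0.091, Ubtf stood at 0.042 and Nol6 at 0.0010. Libraries of the same replicate number had correlations of deviations across genes of 0.015, 0.059 and 0.047. Libraries of different number had -0.076 to 0.035. All of these are small, and the labels state no pairing, so the numbers are not read as pairs. In this balanced design a block cannot change a fold change, only its error.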
